A study of Mus musculus with 12 samples.

Results

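The transcriptome of granulocyte-macrophage progenitors (GMPs) that lack Ezh2 was examined on 4 of the 12 arrays of the study, those of GMPs from mice without overt disease. The arrays were chosen from their labels alone: 2 arrays of Ezh2-null GMPs were set against 2 of GMPs with wild-type Ezh2, and 1 array on each side carried the Tet2 knockdown. The Ezh2-null arrays were Ezh2-/- and Tet2KD/KD Ezh2-/- (double mutant) GMPs, and their counterparts were wild-type and Tet2KD/KD GMPs. All were C57BL/6 GMPs sorted from the bone marrow of recipient mice that had been repopulated with fetal liver cells of these genotypes, so every group, wild-type included, went through transplantation. Tet2KD/KD is a hypomorphic allele with reduced Tet2 expression and not a null. The labels do not say how Ezh2 was deleted, how many animals were pooled, or if LSK cells and GMPs of a genotype shared donors. There was 1 array for each genotype. Replication for Ezh2 loss therefore came from its 2 pairs, Ezh2-/- against wild-type and double mutant against Tet2KD/KD. Its error comes from how far the 2 pairs differed, pooled in part over all genes, and not from the spread between mice. The other 8 arrays held 2 further GMP samples, from double mutant mice with a myelodysplastic/myeloproliferative disease (MDS/MPN) or refractory anaemia with excess blasts (RAEB), and 6 samples of LSK cells, the lineage-negative Sca-1+ c-Kit+ fraction that contains the stem cells.

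GMPs are committed bone marrow progenitors that give rise to neutrophils, monocytes and related cells, and they make large amounts of the proteins of the primary granules. Ezh2 is the main catalytic subunit of Polycomb repressive complex 2 (PRC2), which methylates histone H3 on lysine 27. That mark is read by Polycomb repressive complex 1 (PRC1) and lies on silent genes of development, many of which have promoters rich in CG dinucleotides. Tet2 oxidises methylated cytosine in DNA.

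Values below are log2 signals relative to the 75th percentile of the array, so that 0 is a fairly bright gene. Differences are log2 differences, Ezh2-null minus Ezh2 wild-type, averaged over both pairs, with their standard error (SE) from limma. Where a probe was not well above background on either array of the dimmer group, its level there has only a bound and its fold is given as "at least". The dim level of each array was the higher of the probe's own signal and the dimmest signal the scanner software called well above background. A probe undetected on only 1 of these arrays was taken as measured. Of 20284 genes with a named probe, 12538 were tested, the ones with a probe that the scanner software called well above background on 2 or more of these 4 arrays. On the 4 arrays 47.9 to 49.0% of spots were well above background, and all 4 lay on 1 slide. The 9 GMP markers, among them Elane, Mpo and Ctsg, were above background on all 4 arrays. Their summed signal was 12.06 and 12.42 on the Ezh2-/- and double mutant arrays, against 12.24 and 12.12 on the wild-type and Tet2KD/KD arrays, and 9.18 to 9.53 on the LSK arrays without disease. Marker sums were taken on the linear scale before the log2, so the brightest markers weigh most. Some defining markers of other cells were at background on all 4 GMP arrays, namely Mecom and Mycn of stem cells, C1qa of macrophages, Pax5 and Ebf1 of B cells, Cd3g and Klrb1c of T and NK cells, and Cdh5 and Cxcl12 of stroma. Other markers of the same cells were detected on all 4: Ly6a, Hlf and Procr of stem cells, Cd3e and Lck of T cells, and Kdr and Lepr of stroma and endothelium. The stem cell markers summed to 2.80 and 3.73 on the Ezh2-null arrays, against 3.22 and 3.48 on the others. The T and NK markers summed to 2.73 and 2.87, against 2.91 and 2.53, and the stromal and endothelial markers to 6.12 and 6.37, against 6.08 and 6.03. The late neutrophil markers summed to 4.26 and 5.47 on the Ezh2-null arrays, against 5.01 and 4.05 on the others. Among them Camp, Ltf and Ngp were lower on the Ezh2-null array in both pairs. S100a8, Lcn2 and Mmp8 were higher on it in the second pair only. The sums for eosinophil, mast cell and basophil markers were 6.47 and 6.28, against 6.41 in wild-type and 5.66 in Tet2KD/KD GMPs.

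Ezh2 mRNA did not separate the groups. It stood at 3.35 in Ezh2-/- and 3.12 in double mutant GMPs, against 3.24 in wild-type and 3.40 in Tet2KD/KD GMPs. The single probe for Ezh2 may lie outside the deleted part, so it gives no check of the genotype. Tet2 was at 1.51 in Ezh2-/- and -1.01 in double mutant GMPs, against 1.57 in wild-type and -0.64 in Tet2KD/KD GMPs, so the 2 arrays labelled with the knockdown were the 2 low ones. The labels give no sex. Xist was at -4.36 and 1.17 on the Ezh2-/- and double mutant arrays, against 1.63 and -6.07 on the wild-type and Tet2KD/KD arrays, and the Y-linked gene Ddx3y was high on exactly the arrays where Xist was low, at 1.09 in Ezh2-/- and 1.17 in Tet2KD/KD GMPs. Each pair thus crossed this pattern, in opposite directions, and the pattern is balanced in the mean of the pairs but cannot be told apart from a difference between the pairs.

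By measured signal, 231 genes were 2-fold or more higher in the Ezh2-null GMPs in both pairs (1.84% of the genes tested) and 23 were 2-fold or more lower (0.183%). This is called the 2-fold rule below, and it takes signals at background as measured. Probes undetected on both dimmer arrays were then held to their bounds, taken on the mean of the pairs. With that, 215 of the 231 and 18 of the 23 still differed by 2-fold or more. The 25 higher and 2 lower genes undetected on only 1 dimmer array were counted as measured. The excess of higher genes lay among the wide differences: with no limit on size, 3240 genes were higher in both pairs (25.8%) and 3176 lower (25.3%). Probes undetected on both dimmer arrays were next put at their bound and the others at their smaller pair difference. By that count 44 higher genes differed by 4-fold or more and 9 by 8-fold or more, against 2 and 1 lower genes. With normexp background correction, which shrinks differences of dim probes, 65 and 2 genes met the rule. Of the 231 higher genes, 122 were above background on both arrays with wild-type Ezh2, 25 on 1 and 84 on neither. These 84 were tested only because their probes were detected on the Ezh2-null arrays. The median level of the 231 was -1.41 in Ezh2-null and -3.33 in Ezh2 wild-type GMPs. The lower genes had a median of -3.85 in Ezh2-null and -1.82 in Ezh2 wild-type GMPs, and 11 of 23 were not above background on either Ezh2-null array. By detection alone, 138 genes (1.10%) were above background on both Ezh2-null arrays and neither Ezh2 wild-type array, and 74 (0.590%) the reverse.

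No gene passed limma on the 4 arrays after Benjamini-Hochberg adjustment, in either direction (0% of 12538), with a smallest adjusted p of 0.0583. At an unadjusted p below 0.05, 677 genes were higher (5.40%) and 350 lower (2.79%), 1027 in all against 626.9 expected by chance. This fit has 1 residual degree of freedom. An exact two-sided permutation of 2 against 2 arrays, which ignores the pairs, cannot go below 0.333. A fit of all 8 arrays without disease, with Ezh2 and Tet2 terms of their own for each cell type, has 2 residual degrees of freedom and called 105 genes higher (0.784% of 13389) and 7 lower (0.0523%) in Ezh2-null GMPs. Of these, 92 and 6 were also among the genes that met the 2-fold rule. The fit and the rule use the same GMP pair differences, so this overlap is not independent support. The count on 4 arrays turned on single arrays and settings: 207 genes higher and 21 lower passed without the wild-type array and the Tet2 term, 128 and 15 without the Tet2KD/KD array, and 0 and 0 without either Ezh2-null array. Genes that passed are named below as called in the 8-array fit, whose SE draws on LSK arrays as well.

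**Figure D1:**
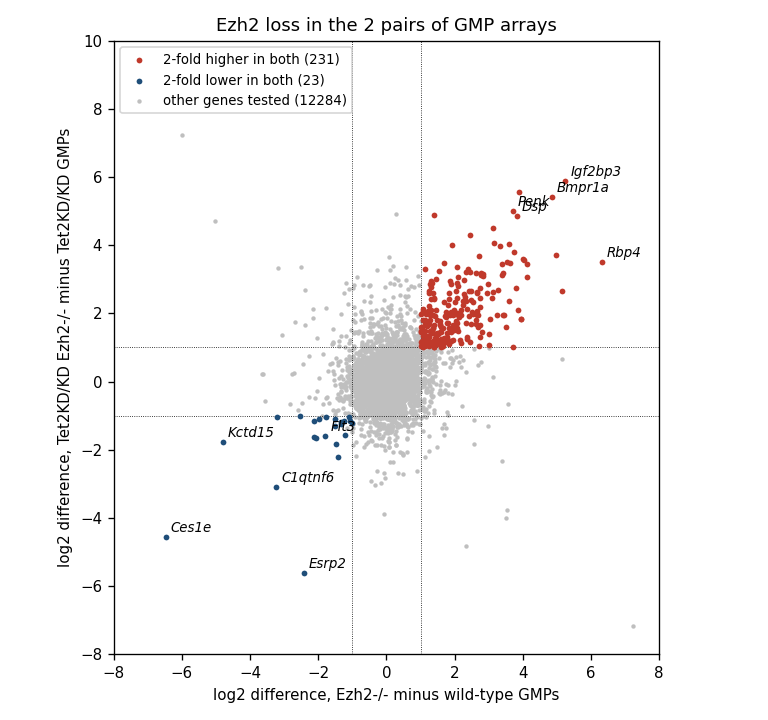
Each point is 1 of 12538 genes tested, placed by its log2 difference between Ezh2-/- and wild-type GMPs (horizontal axis) and between double mutant and Tet2KD/KD GMPs (vertical axis), 1 array each. Dotted lines mark 2-fold, red points the 231 genes higher and blue points the 23 genes lower by the 2-fold rule; the upper right corner is far fuller than the lower left.

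Taken alone, the Ezh2-/- array had 399 genes at least 2-fold higher (3.18%) and 162 lower (1.29%) than wild-type, and the double mutant array 513 higher (4.09%) and 241 lower (1.92%) than Tet2KD/KD. The 2 pairs share no array. Across the 12538 genes, which are not independent replicates, their differences correlated with Pearson's r = 0.287, a description only. In opposite directions 50 genes (0.399%) were at least 2-fold apart. The largest such differences outside the sex-linked genes were those of Syce1, Gsdma2, Fscn1 and Smoc2, with pair differences of -5.03 and 4.72 for Syce1 and 3.52 and -3.76 for Gsdma2. Whether the Ezh2 effect depended on Tet2 was not tested, since each difference between the pairs rests on single arrays and coincides with the Xist pattern.

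Promoter sequences of 6 genes were picked after their values were seen, from the leading higher and lower genes, to show windows over a wide span of CG content. Each is the RefSeq window of build GRCm38.p6 from 250 bases before to 50 bases after the annotated start, 5′ to 3′ on the strand of the gene, with every CG dinucleotide in capitals. Igf2bp3 (minus strand, chr6:49214905-49215204), Bmpr1a (minus strand, chr14:34502497-34502796), Dsp (plus strand, chr13:38151044-38151343) and Bex2 (minus strand, chrX:136068187-136068486) were higher in Ezh2-null GMPs, with 25, 48, 27 and 12 CGs, while the windows of Zfyve9 and Tspan12, also leading higher genes, hold 4 and 7.
Igf2bp3: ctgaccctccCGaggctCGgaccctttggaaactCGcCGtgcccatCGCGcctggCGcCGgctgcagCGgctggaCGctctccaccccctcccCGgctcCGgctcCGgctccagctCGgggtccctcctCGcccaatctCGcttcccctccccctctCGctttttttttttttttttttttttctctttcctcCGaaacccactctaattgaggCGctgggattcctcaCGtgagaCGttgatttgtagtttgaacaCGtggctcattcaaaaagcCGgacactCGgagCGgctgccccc
Bmpr1a: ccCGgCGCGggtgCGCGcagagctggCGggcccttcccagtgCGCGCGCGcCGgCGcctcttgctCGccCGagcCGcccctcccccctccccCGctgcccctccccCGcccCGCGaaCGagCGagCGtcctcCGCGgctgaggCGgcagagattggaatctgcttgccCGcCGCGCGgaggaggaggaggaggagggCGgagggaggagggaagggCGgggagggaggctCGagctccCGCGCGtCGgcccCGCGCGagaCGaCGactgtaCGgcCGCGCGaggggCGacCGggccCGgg
Dsp: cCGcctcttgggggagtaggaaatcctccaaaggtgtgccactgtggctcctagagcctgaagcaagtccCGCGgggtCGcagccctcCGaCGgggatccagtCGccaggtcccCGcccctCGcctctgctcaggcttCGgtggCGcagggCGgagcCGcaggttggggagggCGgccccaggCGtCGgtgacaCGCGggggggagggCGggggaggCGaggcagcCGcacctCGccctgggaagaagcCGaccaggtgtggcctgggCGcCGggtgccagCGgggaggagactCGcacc
Bex2: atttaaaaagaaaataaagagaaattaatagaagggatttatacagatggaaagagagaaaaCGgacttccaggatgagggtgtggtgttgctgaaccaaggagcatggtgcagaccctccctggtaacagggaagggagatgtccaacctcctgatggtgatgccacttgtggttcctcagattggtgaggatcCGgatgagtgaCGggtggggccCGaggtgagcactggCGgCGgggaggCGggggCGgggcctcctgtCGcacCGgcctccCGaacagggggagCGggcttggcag
Ces1e (minus strand, chr8:93229570-93229869) and C1qtnf6 (minus strand, chr15:78529602-78529901) were lower in Ezh2-null GMPs, and their windows hold 0 and 10 CGs.
Ces1e: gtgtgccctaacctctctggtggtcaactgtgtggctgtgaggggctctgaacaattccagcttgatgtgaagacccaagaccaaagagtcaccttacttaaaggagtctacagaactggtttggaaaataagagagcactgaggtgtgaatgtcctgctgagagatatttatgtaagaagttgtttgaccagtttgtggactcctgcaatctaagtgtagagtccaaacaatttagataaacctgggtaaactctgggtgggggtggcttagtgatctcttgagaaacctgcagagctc
C1qtnf6: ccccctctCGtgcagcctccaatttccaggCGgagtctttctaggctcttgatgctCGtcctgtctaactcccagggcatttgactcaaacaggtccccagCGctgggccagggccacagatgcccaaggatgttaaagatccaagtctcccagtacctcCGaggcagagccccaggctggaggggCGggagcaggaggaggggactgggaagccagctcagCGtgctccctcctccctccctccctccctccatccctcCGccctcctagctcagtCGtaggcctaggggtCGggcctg

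The motif counted was CG, whose reverse complement is itself. A single RefSeq window was at hand for 127 of the 231 higher genes, 14 of the 23 lower genes and 8086 of all 12538 genes tested. The higher genes had a median of 22 CGs in 300 bases, the lower genes 6 and all genes tested 20. At least 15 CGs were present in 94 windows of the higher genes (74.0%), 3 of the lower genes (21.4%) and 5514 of all genes (68.2%). The higher genes were thus close to the share over all genes. The lower genes had CG-poorer windows, as a description over 14 windows. Windows with no CG made up 1.21% of all, and 0 of the 127.

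Among the higher genes the widest difference was that of Igf2bp3, where signals at background are taken as measured. By bounds, genes such as Penk and Tmeff1 were shown further apart, at least 19.7-fold and 13.5-fold, against at least 11.7-fold for Igf2bp3. Igf2bp3, a gene for a fetal mRNA-binding protein, was at -0.95 in Ezh2-/- and -0.34 in double mutant GMPs, against -6.19 in wild-type and -6.23 in Tet2KD/KD GMPs. It was at background on both Ezh2 wild-type arrays, and the groups did not overlap. The difference was 5.56 ± 0.22 (SE), at least 11.7-fold, with limma adjusted p = 0.0583 on 4 arrays and 0.0149 in the 8-array fit (5.6e-46 to 0.445 over all settings tried). Bmpr1a, a type I receptor for bone morphogenetic proteins, was at -1.43 in Ezh2-/- and -0.91 in double mutant GMPs, against background values of -6.27 in wild-type and -6.31 in Tet2KD/KD GMPs. Its difference of 5.12 ± 0.20 (SE), at least 8.12-fold, had limma adjusted p = 0.0583 on 4 arrays and 0.00625 in the 8-array fit (4.2e-39 to 0.445 over all settings). Rbp4, the carrier of retinol in blood, was at 1.11 in Ezh2-/- and 0.15 in double mutant GMPs, against -5.20 in wild-type and -3.36 in Tet2KD/KD GMPs. Among the 4 arrays it was brighter than the 75th percentile only on the Ezh2-null ones, and 1 of the 2 arrays with wild-type Ezh2 detected it above background. The pairs differed more for Rbp4 than for the other 2 genes, with 6.31 and 3.50, so the difference of 4.91 had an SE of 0.74 and limma adjusted p = 0.194 on 4 arrays and 0.0297 in the 8-array fit (6.2e-36 to 0.475 over all settings). The lowest p of all 3 genes came from the 8-array fit with the Xist pattern as a further term, which leaves 1 residual degree of freedom. The sizes depended on the treatment of dim spots: with normexp correction and an offset of 50 the differences were 1.82 for Igf2bp3, 1.46 for Bmpr1a and 2.59 for Rbp4.

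Ranked by the smaller pair difference, the 12 leading higher genes also held Zfyve9, Dsp, Tmeff1, Tspan12, Penk, Ninl, Bex4, Bex2 and Me1. All 12 passed the 8-array fit, which uses the same GMP pair differences that ranked them and so adds no independent support. Of the 12, 8 were at background on both Ezh2 wild-type arrays. Their mean differences ran from 3.51 to 5.56. Zfyve9, the anchor protein that brings Smad proteins to the TGF-beta receptor, was at -1.27 in Ezh2-/- and -0.54 in double mutant GMPs, against -5.17 in wild-type and -6.11 in Tet2KD/KD GMPs (at least 9.77-fold). Dsp, the desmosome protein desmoplakin, was at -0.07 and 0.25 in the Ezh2-/- and double mutant GMPs, against -3.90 and -4.59 in the wild-type and Tet2KD/KD GMPs. Penk, the precursor of the enkephalin peptides, reached -0.58 in Ezh2-/- and 1.21 in double mutant GMPs, against -4.28 in wild-type and -3.78 in Tet2KD/KD GMPs (at least 19.7-fold). Tspan12, a tetraspanin that works with a Frizzled receptor, was about equally dim in both Ezh2 wild-type samples, with -6.34 in each, and stood at -1.36 in Ezh2-/- and -2.62 in double mutant GMPs. Me1, the cytosolic malic enzyme, was at background in both Ezh2 wild-type samples and at least 2.40-fold higher. Its other probes, above background on 2 and 1 of the 4 arrays, gave differences of 2.28 and 1.39 with background signals taken as measured. Ninl, a centrosome protein, was at least 5.28-fold higher.

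Several of the higher genes lie on the X chromosome, 17 of 231 (7.36%), against 421 of all 12538 genes tested (3.36%). They include Bex1, Bex2 and Bex4, small proteins of a family first described in brain, and Arxes1 and Arxes2. Bex4 was at 2.70 in Ezh2-/- and 2.60 in double mutant GMPs, against -1.30 in wild-type and -0.98 in Tet2KD/KD GMPs. Bex2 was at 0.87 and 0.95 in the Ezh2-null GMPs, against -3.17 in wild-type and -2.61 in Tet2KD/KD GMPs. Both were above background on all 4 arrays, and in each group 1 array had high and 1 had low Xist. Bex1, which is outside the rule for named genes and was chosen after its values were seen, had 3.23 and 3.08 in the Ezh2-null GMPs, against 0.12 in wild-type and 0.45 in Tet2KD/KD GMPs. None of the 23 lower genes was X-linked.

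**Figure D2:**
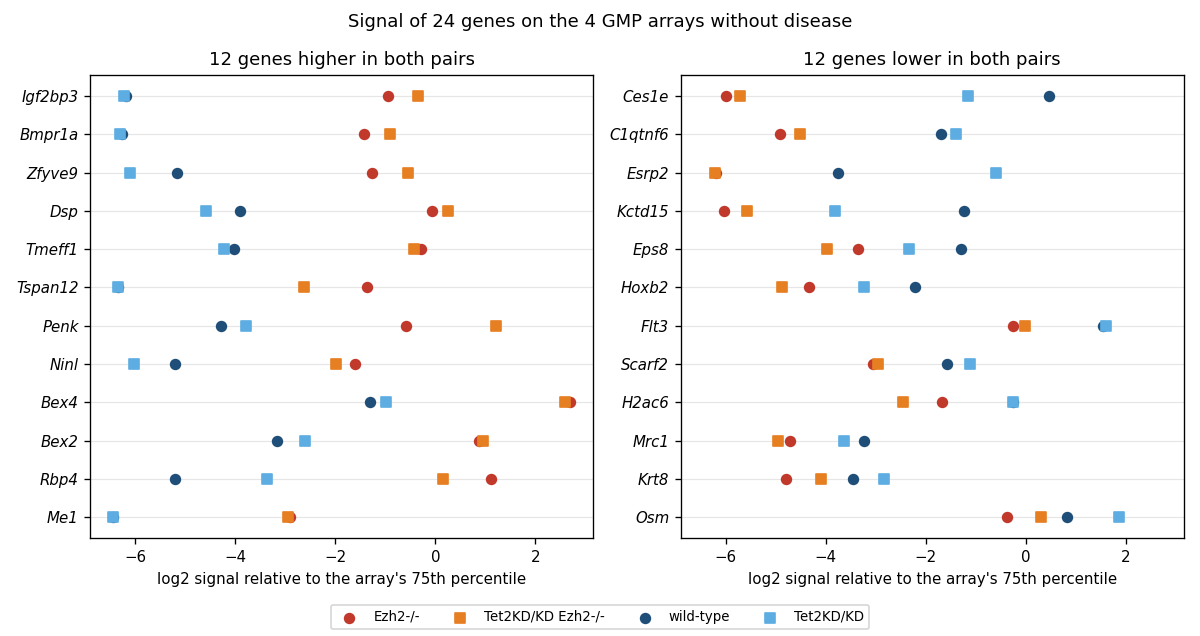
Log2 signal relative to the array's 75th percentile (horizontal axis) of 24 genes on the 4 GMP arrays, 1 point per array: Ezh2-/- (red), double mutant (orange), wild-type (dark blue) and Tet2KD/KD (light blue). On the left, 12 genes higher in both pairs, with Ezh2-null points apart from the others by 3.51 to 5.56 on average; on the right, 12 genes lower in both pairs, by 1.29 to 5.52.

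Among the lower genes, Ces1e, a carboxylesterase, had the widest gap. It was at background in Ezh2-/- and double mutant GMPs, with -6.00 and -5.72, against 0.47 in wild-type and -1.16 in Tet2KD/KD GMPs. The difference of -5.52 ± 0.51 (SE) is at least 13-fold. C1qtnf6, a secreted protein of the C1q and TNF related family, was at -4.91 and -4.51 in Ezh2-/- and double mutant GMPs, against -1.69 in wild-type and -1.40 in Tet2KD/KD GMPs. Its difference of -3.17 ± 0.15 (SE) was at least 5.67-fold. Esrp2, a regulator of splicing in epithelia, and Kctd15 were both at background in Ezh2-null GMPs and at least 3.66-fold and 2.88-fold lower. Their measured pair differences were uneven, at -2.43 and -5.63 for Esrp2 and -4.79 and -1.77 for Kctd15. The 12 lower genes named also held Eps8, Hoxb2, Flt3, Scarf2, H2ac6, Mrc1, Krt8 and Osm, and 6 of the 12 passed the 8-array fit. Flt3, the receptor tyrosine kinase of early progenitors, was at -0.25 in Ezh2-/- and -0.01 in double mutant GMPs, against 1.54 in wild-type and 1.59 in Tet2KD/KD GMPs. Its probe was above background on all 4 arrays, and its difference was -1.70 ± 0.15 (SE). A second, dimmer probe for Flt3, also above background on all 4 arrays, gave a difference of -0.53 and missed the 2-fold rule. Osm, the cytokine oncostatin M, was at -0.38 in Ezh2-/- and 0.29 in double mutant GMPs, against 0.83 in wild-type and 1.87 in Tet2KD/KD GMPs. Both dim and bright genes are therefore among those lower without Ezh2.

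Gene lists are set beside the shares over all genes tested, of which 1.84% were higher and 0.183% lower by the 2-fold rule; a list member dim in 1 group passed the filter only through the other. None of 12 measured PRC2 genes met the 2-fold rule, and their median difference was -0.01, against 0.0008 over all genes tested. Of 20 measured PRC1 genes, Bmi1 alone met it. Bmi1, a PRC1 subunit needed for self-renewal of blood stem cells, was at 3.75 in Ezh2-/- and 3.72 in double mutant GMPs, against 2.08 in wild-type and 2.16 in Tet2KD/KD GMPs. The gap of 1.62 ± 0.15 (SE) was far wider than the spread within each side, and Bmi1 passed the 8-array fit. The nearest PRC2 gene to the 2-fold line was Epop, a cofactor of PRC2, with a difference of 0.60 ± 0.15 (SE).

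The HoxA cluster with its Meis and Pbx partners, homeodomain proteins that set the identity of early blood progenitors, had 4 genes higher by the rule and none lower among the 13 of 17 measured, against 1.84% higher over all genes. Their median difference was 0.25. Hoxa10 was at -2.68 in Ezh2-/- and -2.96 in double mutant GMPs, against background values of -6.10 in wild-type and -6.14 in Tet2KD/KD GMPs (at least 2.59-fold). Pbx3 was at 1.00 and 1.07 in the Ezh2-null GMPs, against -1.36 in wild-type and -1.07 in Tet2KD/KD GMPs, and both Hoxa10 and Pbx3 passed the 8-array fit. Hoxa4 had uneven pairs, 2.18 and 1.13. Hoxa9, Hoxa7 and Meis1, known for their roles in leukaemia, were chosen after their values were seen: they differed by -0.01, 0.06 and -0.34. In the HoxB, HoxC and HoxD clusters only 4 of 28 genes could be measured, and 1 of them, Hoxb2, was lower by the rule (at least 2.49-fold), at -4.34 and -4.87 in Ezh2-/- and double mutant GMPs, against -2.22 in wild-type and -3.25 in Tet2KD/KD GMPs. Of 71 other developmental transcription factors 14 were measured. None of them met the rule.

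Of 11 measured genes of fetal growth, out of 20 listed, Igf2bp3, Lin28b, Hmga2 and Grb10 were higher by the rule (1.84% over all genes). The list median was 0.35, but 0.22 in the first pair and 0.73 in the second, and it ranged from 0.11 to 0.65 over the other settings. Lin28b, which blocks maturation of let-7 microRNAs, was at -1.04 in Ezh2-/- and -2.66 in double mutant GMPs, against background values of -6.18 in wild-type and -5.31 in Tet2KD/KD GMPs (at least 5.06-fold). Hmga2, an architectural chromatin protein and let-7 target, was at -0.28 and -0.72 in Ezh2-/- and double mutant GMPs, against -3.99 in wild-type and -1.74 in Tet2KD/KD GMPs. Here the Ezh2 wild-type arrays differed from each other by more than 2-fold, and the second pair only just met the 2-fold rule (1.02). Grb10, an imprinted adaptor of insulin and IGF receptors, differed by 1.97 ± 0.35 (SE). Of these 4 genes only Igf2bp3 passed the 8-array fit.

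Of 28 measured genes of TGF-beta and BMP signalling, Bmpr1a and the co-receptor Tgfbr3 were higher by the rule (1.84% over all genes), and the median was 0.13. Tgfbr3 differed by 1.24 ± 0.17 (SE). Of 12 measured retinoid genes, 2 were higher by the rule, Rbp4 among them, and the median was 0.07. The Wnt list had 3 of 18 genes higher by the rule, all of them Frizzled receptors. Fzd4 was at -0.03 and 0.25 in Ezh2-/- and double mutant GMPs, against -1.77 in wild-type and -1.70 in Tet2KD/KD GMPs. Fzd3 differed by 1.43 ± 0.15 (SE) and Fzd6 by 1.64 ± 0.27 (SE).

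Epithelial adhesion genes lay on both sides. Of 13 measured, Dsp, the desmosomal plaque protein Pkp2, Perp and E-cadherin (Cdh1) were higher by the rule (1.84% over all genes), all called in the 8-array fit, and keratin 8 (Krt8) was lower by measured signal (0.183% over all genes). Pkp2 was at -2.52 in Ezh2-/- and -2.38 in double mutant GMPs, against background values of -6.13 in wild-type and -5.85 in Tet2KD/KD GMPs (at least 3.35-fold). Cdh1 was at -0.98 and -1.83 in Ezh2-/- and double mutant GMPs, against -2.92 in wild-type and -3.49 in Tet2KD/KD GMPs. Krt8 was not above background in Ezh2-null GMPs, so that it is shown to be at least 1.87-fold lower and not 2-fold. Among 16 measured neuronal and synaptic genes, Camkv, Ppm1e and the adhesion molecule Ncam1 were higher by the rule. Ncam1 was at 1.98 and 2.57 in Ezh2-/- and double mutant GMPs, against 0.07 in wild-type and -1.45 in Tet2KD/KD GMPs.

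**Figure D3:**
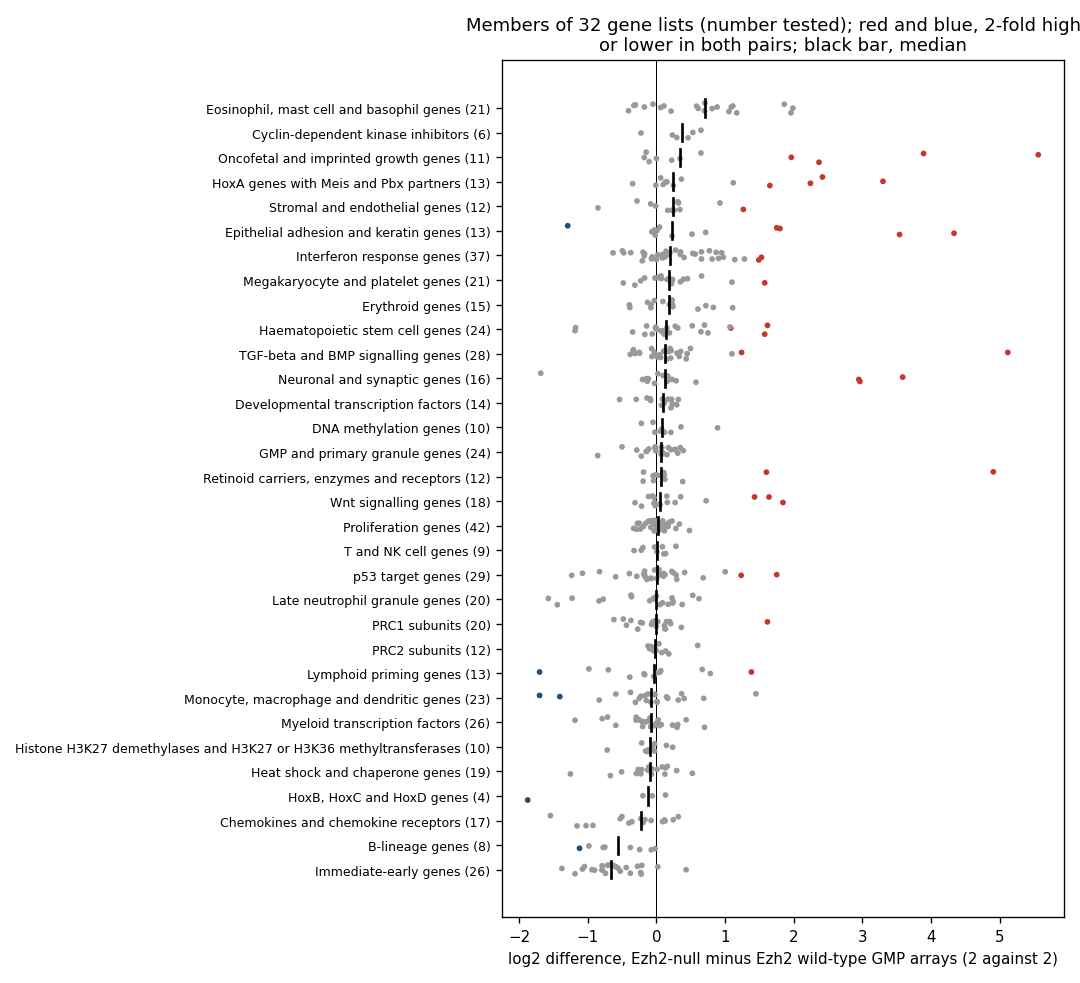
Log2 difference between Ezh2-null and Ezh2 wild-type GMP arrays (horizontal axis, mean of 2 pairs) for each measured member of 32 gene lists, 1 point per gene, with the list median as a black bar and the number measured in brackets. Red and blue points are members higher and lower by the 2-fold rule; most lists have medians near 0 with single members far to the right.

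None of 24 measured primary granule and GMP genes and none of 26 myeloid transcription factors met the 2-fold rule, counts close to the 1.84% higher and 0.183% lower over all genes, with medians of 0.07 and -0.08. Mpo, the peroxidase of primary granules, differed by 0.08 and the neutrophil elastase gene Elane by -0.14. None of 20 late neutrophil genes and none of 42 proliferation genes met the rule, with medians of -0.01 and 0.03. Among 6 measured inhibitors of cyclin-dependent kinases, 4 had the same positive sign in both pairs, against 25.8% of all genes tested. None was 2-fold apart, and their median was 0.38. The nearest to the 2-fold line, Cdkn1c, differed by 0.65 ± 0.15 (SE). In the p53 target list 2 of 29 genes were higher by the rule, Perp and Zmat3.

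Of 24 measured stem cell genes, 3 were higher by the rule (1.84% over all genes) and none lower, among them Bmi1 and Mllt3, and the median was 0.14. Mllt3, a transcriptional cofactor of stem cells, was at -1.12 in Ezh2-/- and -1.26 in double mutant GMPs, against -2.13 in wild-type and -2.43 in Tet2KD/KD GMPs. Of 13 lymphoid priming genes, Cnn3 was higher by the rule and Flt3 lower, and of 8 B-lineage genes Igll1, a part of the surrogate light chain, was lower (0.183% over all genes), with a list median of -0.56. In the list of monocyte, macrophage and dendritic genes, Flt3 and the mannose receptor gene Mrc1 were the 2 of 23 lower by measured signal. Mrc1 was at background in Ezh2-null GMPs, which shows it at least 1.53-fold lower. Interferon response genes had 2 of 37 higher by the rule, Ifi44 and Usp18, and a median of 0.20, with 0.04 in the first pair and 0.39 in the second. Sparc was the 1 of 12 stromal and endothelial genes higher by the rule, with a difference of 1.27 ± 0.15 (SE).

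Pair medians were also uneven in other lists. Eosinophil, mast cell and basophil genes had a median difference of 0.70 over 21 genes, but 0.17 between Ezh2-/- and wild-type and 0.97 between double mutant and Tet2KD/KD GMPs, and none met the 2-fold rule. The median level of that list was 1.63 and 1.27 in Ezh2-/- and double mutant GMPs, against 1.10 in wild-type and -0.93 in Tet2KD/KD GMPs. Immediate-early genes, which respond within minutes to stimulation or handling of cells, had a median of -0.66 over 26 genes, with 0.12 in the first pair and -1.27 in the second. Their median level was 2.53 and 2.08 in Ezh2-/- and double mutant GMPs, against 2.66 in wild-type and 3.61 in Tet2KD/KD GMPs. In the eosinophil and immediate-early lists the Tet2KD/KD array lay apart from the other 3. The part of these shifts in the other differences was not tested. The chemokine Ccl4, with 3.82 and 3.84 in Ezh2-/- and double mutant GMPs against 4.71 in wild-type and 6.04 in Tet2KD/KD GMPs, has the same array at its extreme.

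The same deletion was measured in LSK cells on arrays that share no sample with the GMP arrays. By the same rule 110 genes were higher in both LSK pairs (0.847% of 12980 genes tested there) and 76 lower (0.586%). Of the 231 genes higher in GMPs, 34 were among the 110, which is 14.7% of the GMP genes and 30.9% of the LSK genes. Only 196 of the 231 and 15 of the 23 lower genes were tested in LSK cells, and the others could not meet the rule there. Of the 23 lower genes, 5 were among the 76 (21.7% and 6.58%), namely C1qtnf6, Hoxb2, Scarf2, Gstm2 and Tmc4. No gene met the rule in opposite directions in the 2 cell types. The same sign as in GMPs was found in both LSK pairs for 129 of the 231 higher genes, where 17.5% of all genes tested had that sign, and for 15 of the 23 lower genes, where 18.4% had it.

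The shared genes include Bmpr1a, Zfyve9, Dsp, Ninl, Bex2, Pkp2, Pbx3, Hmga2, Ncam1, Camkv, Ppm1e, Cnn3 and Bmi1. Bmpr1a was at -2.94 in Ezh2-/- and -1.78 in double mutant LSK cells, against -6.20 in wild-type and -6.15 in Tet2KD/KD LSK cells. Bmi1 was at 3.17 and 3.10 in the Ezh2-null LSK cells, against 1.92 in wild-type and 1.98 in Tet2KD/KD LSK cells, close to its levels in GMPs. Igf2bp3 and Rbp4 were not among the genes tested in LSK cells, since too few of the LSK arrays had them above background. The pair differences of Igf2bp3 there were 3.11 and 0.63. Rbp4 had LSK pair differences of 0.76 and -0.26, at levels of -5.52 and -6.43 in Ezh2-/- and double mutant LSK cells, against -6.28 in wild-type and -6.17 in Tet2KD/KD LSK cells, all near the dimmest probes. Hoxa10 was bright in LSK cells whatever the Ezh2 genotype, with 0.04 and -0.17 in Ezh2-/- and double mutant LSK cells, against -0.63 in wild-type and -0.02 in Tet2KD/KD LSK cells.

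The test of the difference itself, the Ezh2 effect in GMPs minus that in LSK cells in the 8-array fit, passed for no gene in either direction (0% of 13389 genes, limma with Benjamini-Hochberg adjustment), with a smallest adjusted p of 0.122. At an unadjusted p below 0.05 there were 705 genes, against 669.5 expected by chance. The smallest p-values included Ces1e, whose effect was lower in GMPs by 5.34, and Rbpms2, higher by 2.82. Ces1e was near the dimmest probes on all 4 LSK arrays, between -6.37 and -6.13. Rbpms2 was at 0.13 in Ezh2-/- and 0.33 in double mutant GMPs, against -2.06 in wild-type and -1.63 in Tet2KD/KD GMPs. Other small p-values belonged to Ptn, Drc3, Chl1 and Mpzl2, which were at background on all 4 GMP arrays, so that their difference lay in LSK cells. No gene is therefore shown to respond to Ezh2 loss in GMPs alone.

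**Figure D4:**
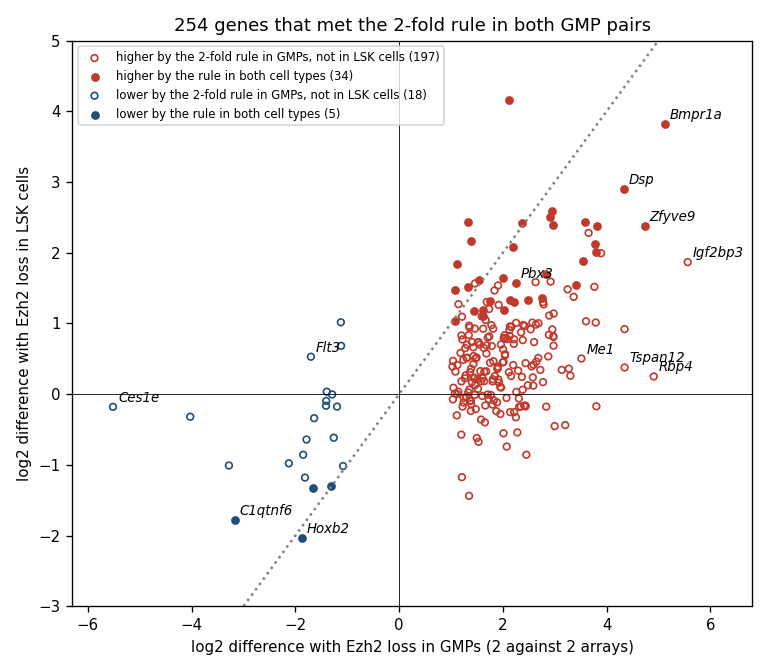
The 254 genes that met the 2-fold rule in GMPs, by their mean log2 difference with Ezh2 loss in GMPs (horizontal axis) and in LSK cells (vertical axis), 2 against 2 arrays each. Filled points, 34 red and 5 blue, met the 2-fold rule in both cell types; the dotted line marks equal differences, and most points lie nearer to 0 in LSK cells, the genes having been chosen by their difference in GMPs.

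The GMPs from diseased double mutant mice were hybridised on another slide, so that disease and slide cannot be told apart, and only their levels are given. Igf2bp3 was at -1.88 with MDS/MPN and -1.79 with RAEB, and Bmpr1a at -1.59 and -1.68, both far above the background values of the wild-type and Tet2KD/KD GMPs. Dsp stood at -0.29 and -0.41, and Bmi1 at 3.01 and 3.30. Rbp4 was split, with 1.04 in MDS/MPN and -3.12 in RAEB GMPs. Flt3 was at 2.24 in MDS/MPN and 4.58 in RAEB GMPs, above its level on each of the 4 GMP arrays without disease.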

How the data were processed

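Total RNA of sorted cells was labelled with Cy3 and hybridised to one-colour Agilent arrays. Scanner output was read with Feature Extraction 10.7.1.1, per the file headers. Its processed signal, as deposited, is an intensity on the linear scale after background correction. The deposited flags for control type, saturation, outliers and signal well above background have no unit and fall under other. In the value table, the authors give the same intensity for all 62976 spots of each array. On the 4 GMP arrays its 75th percentile was 194.8 to 245.0, and no gene spot was saturated. The number of arrays limits the precision.

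From these files, the log2 of the 75th percentile was subtracted from the log2 signal of each array, spots of a probe were averaged and 1 probe was kept per gene, the brightest over all arrays. Probes were named through their RefSeq accession and a gene table of GRCm38.p6, used for names since the headers name another build: 26762 of 55681 probes matched 1 symbol and 28919 none. Of 81 genes named by the rule, 12 had other probes above background on 2 or more of the 4 GMP arrays. All 13 of these probes gave the same sign. Dimmer probes were not counted, and those of Drc3 and Chl1 had the opposite sign. They gave -0.253 and -0.475, against 0.116 and 0.124 for the chosen probes. Tests were two-sided and used limma 3.58.1 (R 4.3.3), with Tet2 genotype as a term, at an adjusted p of 0.05. A gene met the 2-fold rule where the measured signals of both pairs differed by a log2 of 1 or more in 1 direction. The fits were tested on simulated data.

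Named genes included Ezh2, Tet2, Bmpr1a, Igf2bp3 and Rbp4. Up to 12 in each direction were named by the smaller pair difference, with ordinary symbols, X-linked genes such as Bex2 and Bex4 included. Up to 4 members of each list past the rule, or the nearest, were named. So were up to 5 in each direction with the smallest p for GMPs minus LSK cells, and up to 4 with opposite pairs. Members and lists were chosen with earlier results of these data known. Alternatives changed scaling, background correction, filter, probe choice, threshold and arrays. The scanner files as used here gave median and not mean spot signals, so normexp ran on the median signals. Some genes that met the rule are not reported here.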

Additional observations from a re-analysis of the deposited data

Results flagged for a closer look

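The Ezh2 effect on Flt3 had opposite signs in the 2 cell types, in every pair of arrays: it averaged -1.70 in GMPs and 0.53 in LSK cells, a difference of -2.23, for which limma's interaction contrast gave an adjusted p of 0.180, so the difference did not pass. The second Flt3 probe gave -0.53 in GMPs. Probes without a gene symbol, which entered no comparison above, held 45 probes higher by the 2-fold rule (0.425% of 10581 tested) and 20 lower (0.189%) in both pairs of Ezh2-null GMPs.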

How the results depend on the processing

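The number of genes passing limma on 4 arrays (0 higher and 0 lower) depended on the setting: 179 and 22 with normexp, 23 and 0 with probes above background on every array, 144 and 15 with trend and robust variances, 79 and 3 without the Tet2 term, 105 and 7 in the 8-array fit, 366 and 70 in that fit with the Xist pattern as a term, and 0 to 207 and 0 to 21 when single arrays were left out, without the Tet2 term. The cause was not tested. Leaving out the wild-type array gave 207 and 21, and leaving out the Tet2KD/KD array 128 and 15, with the lone array assumed to vary like the other side; without either Ezh2-null array 0 and 0 passed. The 2-fold rule was met by 222 and 25 genes by quantile scaling, 65 and 2 by normexp, 122 and 10 above background on every array, 120 and 7 at a log2 difference of 1.5, and, chosen after seeing the data, 214 and 23 without chromosomes X and Y. With 1 array left out a single pair remains, with 399 to 513 and 162 to 241. Genes passing for GMPs minus LSK cells were 9 and 2 with normexp, 18 and 1 above background on every array, 24 and 4 with trend and robust variances, and 0 to 120 and 0 to 61 with single arrays left out. The median of the HoxB, HoxC and HoxD list turned to 0.12 without a filter. With single arrays left out, values ran from -0.20 to 0.0355 for Ezh2, -1.48 to 1.04 for Tet2 and -0.11 to 0.68 for Cd5, and list medians from -0.29 to 0.0361 for HoxB, HoxC and HoxD genes, -0.0925 to 0.24 for developmental transcription factors and -0.49 to 0.0942 for chemokines. No paired analysis was possible because the labels give no replicate numbers, so no block by replicate could be fitted beyond the matching by Tet2 genotype already in the main design. Arrays with 1 sample a group leave the spread between mice unknown, and dim probes give only bounds.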
